A study of Mus musculus with 6 samples.

Results

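The Hox genes of brown adipose tissue (BAT) were taken as every gene whose symbol is Hoxa, Hoxb, Hoxc or Hoxd followed by a number and which has a probe set naming it alone on the Affymetrix mouse genome array used. This gave 33 Hox genes of the 39 that RefSeq lists for GRCm38.p6, with 48 probe sets, among 18193 genes named in this way. The other 6 are not analysed here. Each gene was read from the probe set with the highest mean signal, and the members were Hoxa2, a3, a4, a5, a7, a9, a10, a11 and a13, Hoxb1 to b7, b9 and b13, Hoxc4, c5, c6, c8, c9, c10 and c13, and Hoxd1, d3 and d8 to d13.

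Total RNA came from BAT of 3 mice lacking KRAP (KO) and their 3 wild-type (WT) littermates, with 1 array per animal and the pairs numbered 1 to 3. KRAP binds inositol trisphosphate receptors and actin. In the KO mice part of its coding region was replaced by a neomycin resistance cassette in every tissue, so the deletion was not limited to 1 cell type. The probe set of the KRAP gene, Itprid2, had 35.1 to 47.0 times the array median in KO and 42.2 to 56.6 in WT, and since its place relative to the deleted part is not known it does not check the labels. All 6 mice were 32 weeks old, were fed normal chow and belonged to a C57BL6/J line made by repeated backcrossing from a mixed background that included 129SV/J. Signals are given as multiples of the median of their array, and these medians ranged over 16.5 to 20.4 intensity units. Brown adipocyte markers matched the labelled tissue, since all 11 of 11 were above the median on all 6 arrays, Ucp1 and Cidea included.

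Hox genes encode homeodomain transcription factors that give cells their position along the body from head to tail. Mouse Hox genes lie in 4 clusters, and within a cluster their numbers follow both their order on the chromosome and the order of their domains in the embryo, low numbers towards the head. Adult fibroblasts and fat depots keep part of this pattern, and interscapular BAT arises from paraxial mesoderm of the neck and upper trunk. Polycomb complexes hold unused Hox genes silent, often over promoters rich in CG dinucleotides.

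Promoter sequence of RefSeq (GRCm38.p6) was matched for 19 of the 33 Hox genes, as 21 windows of 250 bases before a start site. These windows held a median of 13 CG dinucleotides, against 6 in all 32851 windows of the table, and 13 of 21 Hox windows (61.9%) held at least 10, against 37.8% of all windows. CG was counted wherever these letters stand, and it reads the same on both strands. Shown are the windows of Hoxa5 and Hoxd8, which were above the array median on all 6 arrays, and of Hoxd10, which was below 0.25 of it on all 6, each 5′ to 3′ on its own strand with CG in capitals. The Hoxa5 window is chr6:52204588-52204837 on the minus strand with 28 CG, the Hoxd8 window is chr2:74704365-74704614 on the plus strand with 6, and the Hoxd10 window is chr2:74691641-74691890 on the plus strand with 20.
Hoxa5: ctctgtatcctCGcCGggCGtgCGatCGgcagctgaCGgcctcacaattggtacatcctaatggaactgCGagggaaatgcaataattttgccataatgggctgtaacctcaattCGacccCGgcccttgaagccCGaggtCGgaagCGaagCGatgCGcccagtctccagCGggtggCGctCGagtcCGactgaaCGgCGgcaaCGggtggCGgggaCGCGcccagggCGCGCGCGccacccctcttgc
Hoxd8: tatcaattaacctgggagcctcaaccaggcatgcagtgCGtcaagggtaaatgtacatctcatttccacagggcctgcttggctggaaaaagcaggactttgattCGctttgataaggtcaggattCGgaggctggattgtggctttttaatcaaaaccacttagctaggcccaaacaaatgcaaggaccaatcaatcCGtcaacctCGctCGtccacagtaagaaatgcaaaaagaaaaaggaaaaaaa
Hoxd10: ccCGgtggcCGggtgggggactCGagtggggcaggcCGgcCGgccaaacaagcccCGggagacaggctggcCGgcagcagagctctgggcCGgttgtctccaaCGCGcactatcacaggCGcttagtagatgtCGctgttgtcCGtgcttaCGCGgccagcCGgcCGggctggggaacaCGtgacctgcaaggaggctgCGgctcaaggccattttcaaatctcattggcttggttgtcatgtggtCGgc
A window with at least 10 CG was thus found both at a gene above the median on every array and at a gene below 0.25 of it on every array. The 9 matched Hox genes with a mean signal above the array median had a median of 8 CG in their windows, and the 12 windows of the other Hox genes had 16.5, with no test made of this difference. These 12 windows came from 10 genes, since Hoxa10 and Hoxd11 had more than 1 each. They include every window of a gene numbered 10 to 13, so signal and number cannot be told apart here. Most matched genes were of the Hoxa and Hoxd clusters.

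In the Hoxa, Hoxc and Hoxd clusters together, the signals above the array median in BAT came mostly from the middle of the number series, while the Hoxb genes above it on every array were anterior. Taking numbers 1 to 3 as anterior, 4 to 8 as central and 9 to 13 as posterior, the mean signal over the 6 arrays was above the array median for 4 of 7 anterior, 10 of 12 central and 3 of 14 posterior genes. In the Hoxa cluster 2 of 2 anterior and 3 of 3 central genes had a mean above it, and in the Hoxd cluster 0 of 2 and 1 of 1. The Hoxc members include no anterior gene, so lower anterior than central counts in these 3 clusters rest on Hoxd1 and Hoxd3. In the Hoxb cluster 2 of 3 anterior genes, Hoxb2 and Hoxb3, were above the median on all 6 arrays, against 0 of 4 central genes, of which 2 had a mean above it. None of the 10 genes numbered 10 to 13 had a mean above the median (range 0.0557 to 0.654), while 17 of the 21 genes numbered 2 to 9 did. Both genes numbered 1, Hoxb1 and Hoxd1, which pattern the hindbrain and its nerves, were below it, with means of 0.589 and 0.0684. In all, 17 of 33 Hox genes (51.5%) had a mean above the median, against 61.2% of all 18193 genes. Above the median on all 6 arrays were 12 of 33 Hox genes (36.4%), against 53.5% of all genes, and below 0.25 of the median on all 6 were Hoxb13, Hoxc13, Hoxd1 and Hoxd10. Probe sets differ in how strongly they bind, so these counts do not rank transcripts against each other.

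**Figure D1:**
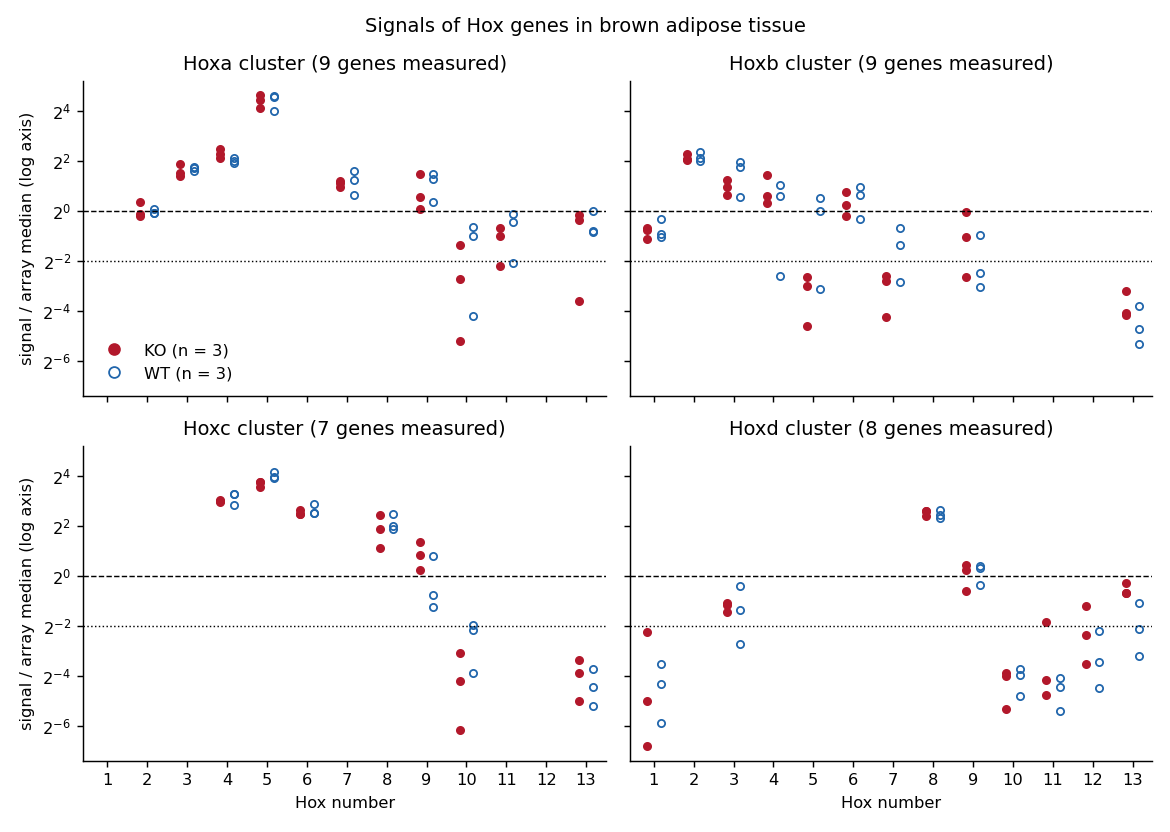
Signal of each measured Hox gene as a multiple of the array median (log axis) against its number, 1 panel per cluster, with filled points for the 3 KO arrays and open points for the 3 WT arrays; the dashed line is the array median and the dotted line the floor of 0.25. In the Hoxa, Hoxc and Hoxd panels all genes of numbers 4 to 8 have means above the median, in the Hoxb panel 2 of 4 do, and all means of numbers 10 to 13 are below it.

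The 4 clusters differed in how many of their genes were above the median. In the Hoxa cluster 6 of 9 genes had a mean above it, and 5 of these were above it on every array. The Hoxc cluster had 5 of 7, with 4 above on every array, the Hoxb cluster 4 of 9, with 2, and the Hoxd cluster 2 of 8, with 1. In the Hoxc cluster the step was narrow: Hoxc4, Hoxc5, Hoxc6 and Hoxc8 were above the median on all 6 arrays, Hoxc9 on 4 arrays, and Hoxc10, the next gene, stayed at or below 0.259 on every array. In the Hoxd cluster Hoxd8 was above the median on all 6 arrays, its neighbour Hoxd9 on 4 and Hoxd10 on none. Closest to the limit of 1 times the median were Hoxa2 (1.01) and Hoxd9 (1.11) on the upper side and Hoxa13 (0.654) on the lower.

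Several Hox probe sets had signals in the upper part of those of all 45037 probe sets, including unnamed ones and all those of each gene. This describes probe sets and not transcript levels, and the percentiles are not ranks among genes. Hoxa5, which patterns the skeleton at the border of neck and thorax and the developing lung, averaged 21.4 times the array median and stood at percentile 92.1 of these probe sets. Hoxc5 and Hoxc4, genes of the neck and upper thorax, stood at percentiles 89.2 and 83.5, Hoxc6 at 79.3, Hoxd8 at 78.4, Hoxa4 at 75.1 and Hoxb2 at 74.9. Hoxd10, which in mice helps specify hindlimb motor neurons, was below 0.25 of the median on all arrays and has no rank.

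The KO arrays were then compared with the WT arrays within littermate pairs, to ask whether loss of KRAP went with a change of any Hox gene. No Hox gene changed by the adjusted test: 0 of the 17 that passed the signal filter (a mean above the array median) had an adjusted p of at most 0.05 by limma, as did 0% of the 11140 genes that passed it. By unadjusted p under 0.05, 1 of 17 was higher in KO, Hoxc9, against 3.22% of tested genes, and 0 were lower, against 4.98%. Without the pair term, and with no filter, 0 Hox genes had an unadjusted p under 0.05. Higher in KO in 3 of 3 pairs were Hoxa4 and Hoxc9, 2 of 17 against 10.9% of tested genes, and lower in 3 of 3 pairs was Hoxc5, 1 of 17 against 19.7%. Read from its brightest probe set, no Hox gene differed by 1.5-fold in the same direction in each pair, against 0.601% of tested genes higher and 0.862% lower. A dimmer Hoxc6 probe set, described below, was lower by at least 1.5-fold in each pair. The other 16 Hox genes had a mean of 1 or less and were not tested. Fewer cells of a type and less RNA per cell cannot be told apart in these bulk samples.

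The median log2 difference, KO minus WT, was -0.09 over the 17 tested Hox genes and -0.07 over all tested genes. By pair these medians were 0.07, -0.21 and -0.10 for Hox genes in pairs 1, 2 and 3, and -0.03, -0.24 and 0.06 for all tested genes. Without array scaling, or with quantile normalization, the median of all tested genes moved to -0.01. Of the 17 estimates 6 were above 0 and 11 below, and the median size of the difference was 0.13, against 0.18 over all tested genes. The 95% confidence intervals of 14 of the 17 genes lay within 2-fold in both directions, 7 within 1.5-fold, and 16 included 0. Their margins either side of the estimate ran from 0.45 for Hoxd9 to 1.74 for Hoxb4 on the log2 scale.

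**Figure D2:**
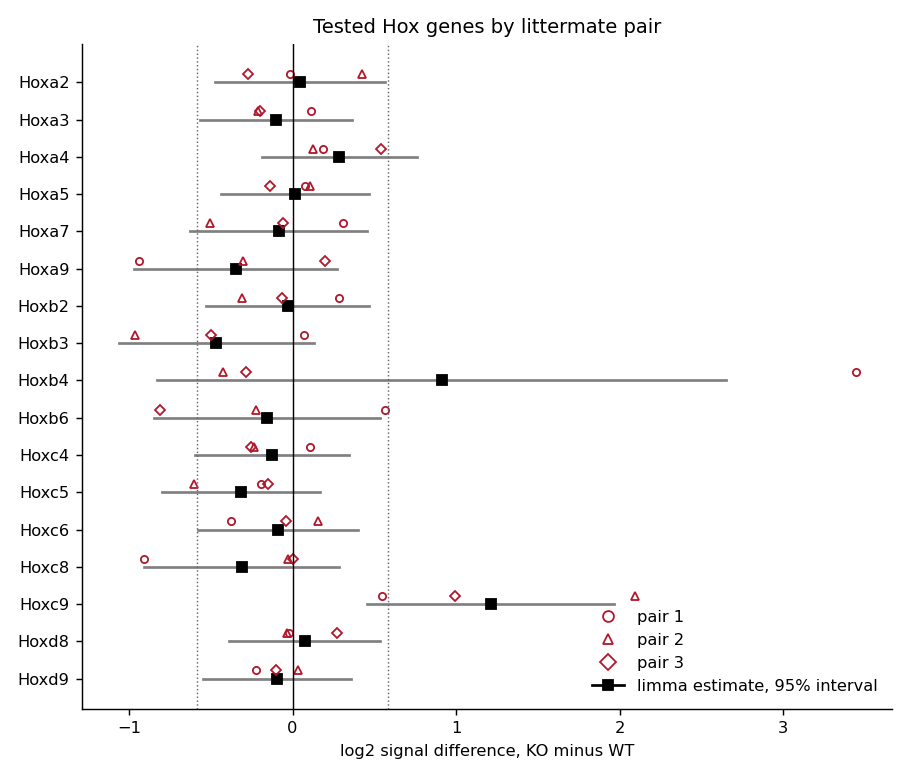
Log2 signal difference, KO minus WT, of the 17 tested Hox genes, with open symbols for the 3 littermate pairs and black squares with bars for the limma estimate and its 95% interval; dotted lines mark 1.5-fold. Hoxc9 alone has an interval above 0, and the estimate of Hoxb4 follows its pair 1 symbol at 3.44.

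Anterior Hox genes, which pattern the hindbrain and the pharyngeal region, gave 4 tested members with differences of -0.47 to 0.05. Hoxa3, needed in mice for the thymus and parathyroid, had 3.67, 2.67 and 2.93 times the median in KO1 to KO3, against 3.40, 3.09 and 3.36 in WT1 to WT3. Hoxb2, a hindbrain gene, had 4.86, 4.15 and 4.21 in KO and 3.996, 5.14 and 4.40 in WT. The groups overlapped for both genes, with log2 differences of -0.10 for Hoxa3 (adjusted p = 0.928) and -0.03 for Hoxb2 (adjusted p = 0.985). Hoxb3, which acts with Hoxa3 in the pharyngeal region, had 1.56, 1.99 and 2.39 in KO and 1.48, 3.88 and 3.37 in WT. Its 2 lower pairs gave an estimate of -0.47 (95% interval -1.06 to 0.13, adjusted p = 0.660). Hoxa2, which patterns the pharyngeal arch that forms the outer and middle ear, had 0.879 to 1.29 in KO and 0.943 to 1.06 in WT. The remaining anterior genes, Hoxb1, Hoxd1 and Hoxd3, were below the median on every array.

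Central Hox genes, which pattern the neck and thorax, held 10 tested members, and their median difference was -0.09. Hoxa5 had 24.9, 17.4 and 22.1 times the median in KO, against 23.6, 16.1 and 24.3 in WT. Both animals of pair 2 were the lowest of their group, and the difference was 0.02 (-0.44 to 0.47, adjusted p = 0.992). Hoxa4, a gene of the neck vertebrae, had 4.93, 4.42 and 5.62 in KO and 4.32, 4.05 and 3.86 in WT. Every KO signal was above every WT signal, as for 4.43% of tested genes, and the difference of 0.29 did not pass (-0.19 to 0.76, adjusted p = 0.729). Read as the mean of its 2 probe sets, Hoxa4 had a difference of -0.004.

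The Hoxc genes gave the opposite ordering in 1 case. Hoxc5 had 13.6, 11.8 and 13.6 times the median in KO and 15.6, 17.8 and 15.1 in WT. All KO signals were below all WT signals, as for 7.87% of tested genes, with a difference of -0.32 (-0.80 to 0.17, adjusted p = 0.710). It was -0.17 without pair 2 and -0.079 as the mean over its 3 probe sets. Hoxc4, its neighbour, had 7.84, 8.30 and 8.14 in KO and 7.28, 9.76 and 9.70 in WT, and Hoxc6, a gene of the upper thorax and forelimb level, had 5.69, 6.37 and 5.65 in KO and 7.39, 5.71 and 5.82 in WT. Both overlapped, with differences of -0.13 and -0.09 (adjusted p = 0.905 and 0.942). As the mean over its 3 probe sets Hoxc6 had a difference of -0.47, with an adjusted p of 0.507 and an unadjusted p of 0.0351. Hoxc8, a thoracic gene known in mice as a repressor of brown adipocyte genes in white fat precursors, had 2.17 to 5.45 in KO and 3.69 to 5.56 in WT, with a difference of -0.31 (-0.91 to 0.28, adjusted p = 0.773). The summed signal of the 7 measured Hoxc genes was 32.1 to 33.8 in KO and 35.1 to 39.6 in WT, but the groups overlapped on unscaled signals and after quantile normalization.

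Hoxb4, known from the expansion of blood stem cells, had 2.72, 1.54 and 1.26 times the median in KO and 0.166, 2.06 and 1.53 in WT. The single low WT1 signal set its estimate of 0.91 (-0.83 to 2.65, adjusted p = 0.773), which was -0.35 without pair 1. Hoxd8 had 5.39, 6.13 and 6.09 in KO and 5.46, 6.27 and 5.04 in WT, a difference of 0.07 (-0.39 to 0.54, adjusted p = 0.946). Hoxa7 (-0.09) and Hoxb6 (-0.16), both genes of the thorax, overlapped between the groups. Hoxb5 had 0.0416, 0.127 and 0.162 in KO and 0.116, 1.46 and 1.01 in WT. It was above the median in WT2 and WT3 only, its mean failed the filter, and 4 of its 6 signals lay below the floor of 0.25 times the median. Hoxb7, also not tested, stayed below the median on every array.

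**Figure D3:**
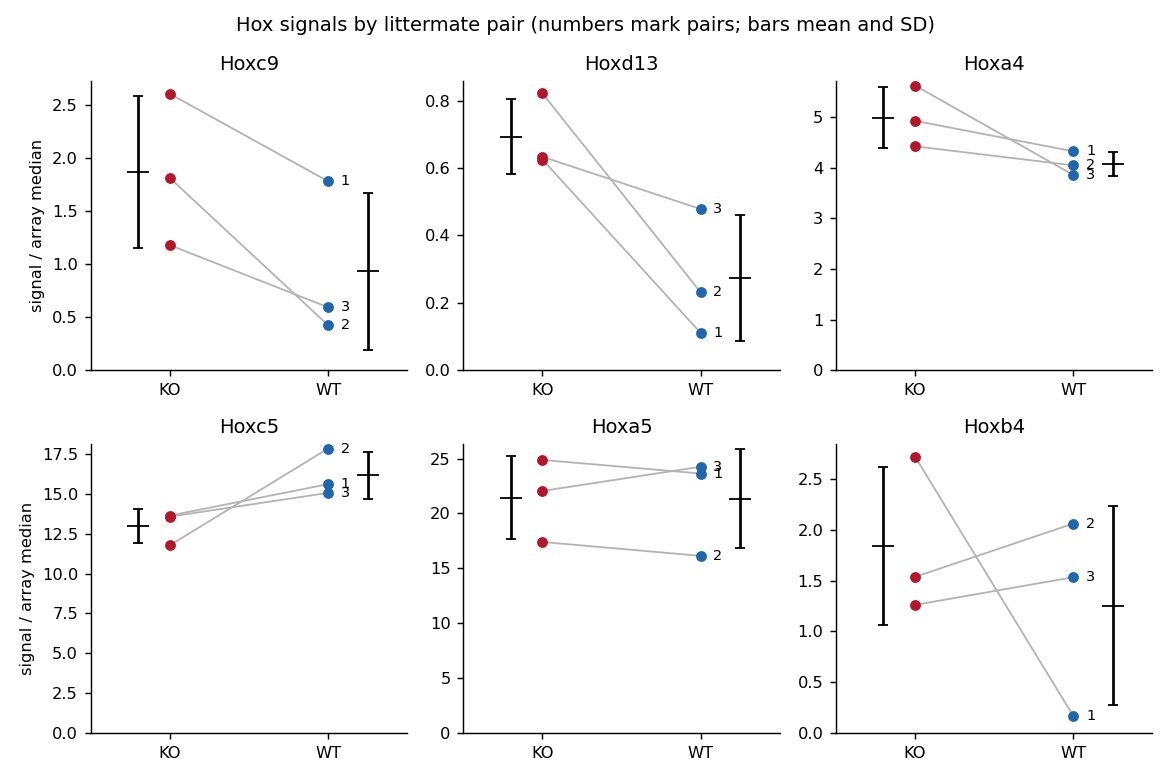
Signal as a multiple of the array median of 6 Hox genes in KO (left) and WT (right) animals, with a line and a number for each littermate pair, and bars for mean and SD (n = 3). Hoxc9, Hoxd13 and Hoxa4 are higher in KO in 3 of 3 pairs, Hoxc5 is lower in 3 of 3, and Hoxa5 and Hoxb4 are mixed.

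Of the posterior genes, which pattern the lower trunk, limbs and urogenital tract, 3 were tested. Hoxc9, which marks the thoracic spinal cord and in mice is higher in inguinal fat than in interscapular BAT, had 2.60, 1.81 and 1.18 times the median in KO and 1.78, 0.424 and 0.592 in WT. The KO animals were higher than their littermates by 1.46-, 4.27- and 1.99-fold, while the groups overlapped, since WT1 was above KO3. The means were 1.86 ± 0.714 in KO and 0.931 ± 0.738 in WT (SD, n = 3 each), so that Hoxc9 passed the filter through its KO signals. The log2 difference was 1.21 (0.46 to 1.97) and did not pass the adjusted test (adjusted p = 0.435), with an unadjusted p of 0.00717 in limma. The unadjusted p was 0.0616 without the pair term and 0.0648 with no filter. Of tested genes, 2.46% were at least 1.5-fold higher on average and higher in 3 of 3 pairs. Without pair 1 Hoxc9 passed, with a difference of 1.54 and an adjusted p of 0.0158, whereas its difference was 0.77 without pair 2 and 1.32 without pair 3. Over the 13 alternatives that gave a value the adjusted p ran from 0.0158 to 0.863.

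The other tested posterior genes, Hoxd9 and Hoxa9, had estimates below 0. Hoxd9, active in the limbs and lumbar trunk, had 0.674, 1.38 and 1.19 times the median in KO and 0.785, 1.35 and 1.27 in WT, a difference of -0.10 (-0.55 to 0.36, adjusted p = 0.928). Hoxa9, which also acts in blood cell precursors, had 1.05 to 2.82 in KO and 1.30 to 2.81 in WT, a difference of -0.35 (-0.97 to 0.27, adjusted p = 0.753). Hoxb9, the remaining gene of number 9, was not tested and had 0.161, 0.975 and 0.493 in KO and 0.181, 0.512 and 0.123 in WT.

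Hoxd13, which patterns digits and genital structures, was below the median in every animal and was not tested. It had 0.625, 0.821 and 0.633 times the median in KO and 0.111, 0.231 and 0.478 in WT. Every KO signal was above every WT signal, as for 5.12% of the 7053 genes that failed the filter, and WT1 and WT2 lay below the floor. The mean log2 difference with the floor was 1.15, and with no filter limma gave an adjusted p of 0.707. Of the genes that failed the filter, 4.58% were at least 1.5-fold higher on average and higher in 3 of 3 pairs. The second Hoxd13 probe set was at or below 0.343 on every array. Genes numbered 10 to 12, of the lumbar and limb levels, and Hoxa13, Hoxb13 and Hoxc13 were below the median in every animal except Hoxa13 at 1.01 in WT1.

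Markers of other cell types also differed between the groups or between single animals, with 0 past the adjusted test in any marker list. The 9 measured fibroblast and progenitor markers summed to 247 to 298 times the median in KO and 206 to 230 in WT, 6 of 9 were higher in 3 of 3 pairs (10.9% of all tested genes), and 8 were above the median on all arrays. Among them Dpp4, a marker of fat progenitors, had 2.08, 2.44 and 1.77 in KO and 1.09, 0.897 and 0.770 in WT, and it passed the filter through its KO signals. White adipocyte markers, 8 tested of 10 measured, summed to 71.3 to 108.5 in KO and 88.9 to 122.5 in WT, with 6 lower in 3 of 3 pairs (19.7% of all tested genes) and 1 higher. The largest differences in this list were those of Lep (-2.07), Sncg (-1.87), Mest (-1.67) and Nnat (-1.65). By 1.5-fold in each pair 4 of the 8 were lower and 1 higher, against 0.862% and 0.601% of tested genes. The higher one was Retn, the gene of the adipokine resistin, with 80.2, 57.6 and 44.6 in KO and 29.5, 37.3 and 26.2 in WT. Summed nerve and Schwann cell markers, 4 tested of 6, were 64.4 to 76.5 in KO and 84.6 to 136.0 in WT. Of these S100b had 22.6, 14.9 and 20.1 in KO and 49.1, 71.7 and 43.1 in WT, while Pmp22, Mbp and Sox10 overlapped between the groups. In 3 of 3 pairs 1 of the 4 tested was lower, S100b, and 1 higher, Sox10 (0.28), against 19.7% and 10.9% of all tested genes. Nefl, not tested, was also higher in 3 of 3 pairs (0.61), so the list did not fall as a group. Summed endothelial markers, 9 tested of 9, were 72.1 to 85.9 in KO and 89.2 to 96.7 in WT. In 3 of 3 pairs 5 of the 9 were lower and 0 higher, against 19.7% and 10.9% of all tested genes. Only 1 of them, Tie1, had all KO signals below all WT signals, against 7.87% of tested genes. Vwf (0.29) and Pecam1 (0.05) had estimates above 0. Skeletal muscle markers, 9 tested of 10, summed to 40.0, 727.5 and 22.8 in KO1, KO2 and KO3 and to 93.5, 65.6 and 287.0 in WT1, WT2 and WT3. Liver markers, 3 tested of 7, summed to 58.0 in KO3 and to 3.51 to 4.40 on the other arrays. The RNA of WT2 had an actin 3′ to 5′ signal ratio of 3.80, against 1.91 to 2.58 on the others. With pair 2 left out the Hoxc9 difference was 0.77 (adjusted p = 0.788). The part of these cell types and of RNA quality in the Hoxc9, Hoxd13, Hoxa4 and Hoxc5 differences was not tested.

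Genes with more than 1 tested probe set show how far a difference depends on the probe set. Both tested probe sets of Hoxc5 were lower in KO in 3 of 3 pairs, with differences of -0.32 and -0.11. The directions of the estimates differed between the tested probe sets of Hoxa5 (0.02 and -0.29), Hoxa9 (-0.35 and 0.24) and Hoxd8 (0.07 and -0.10). For Hoxc6 the dimmest of 3 probe sets had 0.144, 1.06 and 0.871 times the median in KO and 0.623, 1.83 and 2.22 in WT, lower in 3 of 3 pairs. The difference at this probe set, -1.15 (-1.66 to -0.64, adjusted p = 0.396), stands beside -0.09 and -0.16 for the brighter ones, and its KO mean was below the median. Hoxc9 had only 1 probe set.

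**Figure D4:**
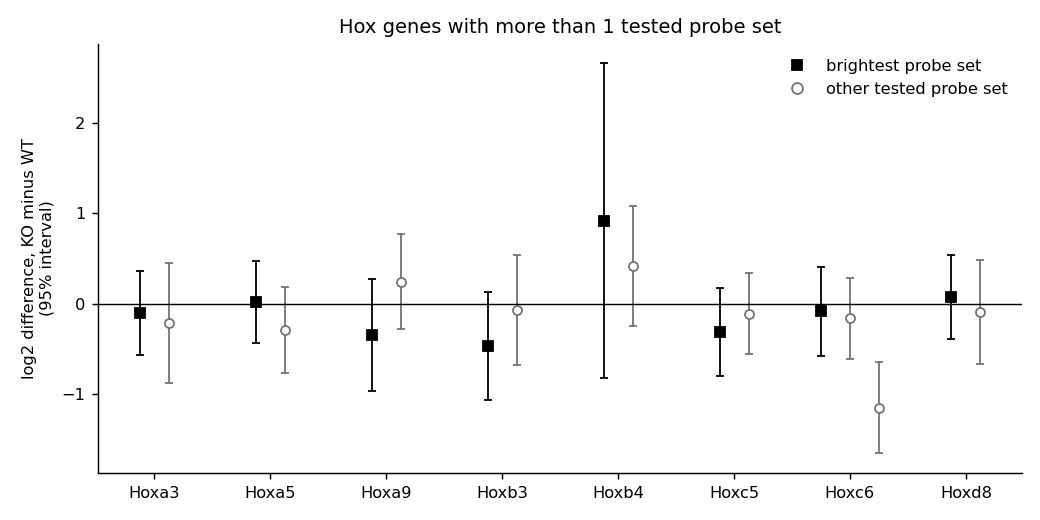
Log2 difference, KO minus WT, with its 95% interval, for the 8 Hox genes with more than 1 tested probe set; filled squares are the brightest probe set and open circles the others. The 3 Hoxc6 probe sets run from -0.09 to -1.15, and 3 genes have estimates on both sides of 0.

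Hox proteins bind DNA with TALE homeodomain partners of the Pbx, Meis and Pknox families. Of the 9 listed, 8 were measured and 6 tested, with 0 past the adjusted test and a median of -0.04. In 3 of 3 pairs 2 were higher and 1 lower, against 10.9% and 19.7% of all tested genes. Pknox2 had 1.10, 1.60 and 1.35 times the median in KO and 0.943, 0.954 and 0.936 in WT. Every KO signal was above every WT signal, as for 4.43% of tested genes (difference 0.50, 0.01 to 0.98, adjusted p = 0.575). Pknox2 passed the filter through its KO signals. Meis2 averaged 4.29 ± 0.903 in KO and 5.95 ± 0.877 in WT (SD, n = 3 each). Its difference was -0.48 (adjusted p = 0.602), but -0.21 and 0.06 at its other tested probe sets. Meis1, with mixed pairs, differed by -0.39, but by 0.14 at its other tested probe set. Pbx3, higher in 3 of 3 pairs, differed by 0.20, and by 0.24 with mixed pairs at its other probe set.

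Of the chromatin regulators of Hox clusters, 15 of 17 polycomb genes and 12 of 12 trithorax genes and demethylases were above the median on all 6 arrays. All 17 measured polycomb genes, which keep Hox genes silent, were tested. Their median difference was -0.01, 0 passed the adjusted test, and 2 were lower and 0 higher in 3 of 3 pairs, against 19.7% and 10.9% of all tested genes. Cbx8, a polycomb subunit that binds methylated histones, had 2.06, 1.81 and 0.967 in KO and 2.19, 3.07 and 2.17 in WT, a difference of -0.67 with an adjusted p of 0.555. Ezh2, the methyltransferase subunit, averaged 5.25 ± 1.34 in KO and 4.23 ± 0.253 in WT (difference 0.28). The 12 trithorax genes and demethylases, which keep Hox genes active, had a median of 0.04, with 3 higher and 0 lower in 3 of 3 pairs, against 10.9% and 19.7% of all tested genes. These 3 were Kmt2a (0.17), Kmt2b (0.22), both histone methyltransferases, and the demethylase Kdm6b (0.14), and 0 of the 12 passed.

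Retinoic acid induces Hox genes in order along the embryo. Of 11 measured genes for its supply and receptors 4 were tested, all with estimates below 0 and 0 past the adjusted test. Their median was -0.27, against -0.07 over all tested genes. In 3 of 3 pairs 2 were lower and 0 higher, against 19.7% and 10.9% of all tested genes. Among those not tested, Aldh1a3 was higher in KO in 3 of 3 pairs (1.45) and Cyp26b1 lower in 3 of 3 (-1.26). Every WT signal of Aldh1a3 (0.124, 0.0691 and 0.151) lay below the floor of 0.25, and its KO1 signal was 0.257. The KO1 signal of Cyp26b1 (0.160) also lay below the floor. Of the genes that failed the filter, 4.58% were at least 1.5-fold higher on average and higher in 3 of 3 pairs. The receptor gene Rarb had 5.39, 6.91 and 7.35 times the median in KO and 8.19, 7.64 and 8.68 in WT. All its KO signals were below all its WT signals, as for 7.87% of tested genes (difference -0.33, adjusted p = 0.697). Rarg, another receptor gene, differed by -0.19 and was lower in KO in 3 of 3 pairs, and Dhrs3 and Aldh1a1, a retinal reductase and a retinal dehydrogenase, differed by -0.36 and -0.21. All 8 measured Cdx, ParaHox and Evx genes, relatives or neighbours of Hox genes, had means of 1 or less and were not tested.

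Homeobox, T-box and related genes of other positional systems were 26 measured and 15 tested, with a median of -0.13, 0 past the adjusted test and 0 higher and 4 lower in 3 of 3 pairs, against 10.9% and 19.7% of all tested genes. Nr2f1, a nuclear receptor gene of embryonic patterning, had 1.39, 1.13 and 0.714 times the median in KO and 1.62, 1.82 and 1.80 in WT. All KO signals of Nr2f1 were below all its WT signals, as for 7.87% of tested genes. Its difference was -0.75 (adjusted p = 0.515). Tbx18, a T-box gene of somites and heart, differed by -0.76 (adjusted p = 0.515), with KO1 at 0.674 as its lowest signal. Tbx15 (-0.84), a T-box gene of brown and some white fat, and Tbx3 (-0.84), a limb and mammary gene, had mixed pairs. Zic1, a mouse marker of interscapular BAT, averaged 12.9 ± 0.742 in KO and 11.9 ± 1.497 in WT (SD, n = 3 each), a difference of 0.12 with overlapping groups.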

How the data were processed

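Total RNA of BAT from 3 KO and 3 WT mice had been hybridised to 1 array per animal. The authors deposited 1 linear signal intensity per probe set, made with GCOS per the labels, without detection calls in the table used here. Neither its version nor a scaling target for GCOS is given in the sources used here.

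The 64 control probe sets were set aside. Each of the 45037 other intensities was divided by its array median, as in the methods of the study, set to at least 0.25 and put on the log2 scale, which understates changes near this floor. Probe sets with a mean above 1 (22356) entered 1 linear model with terms for genotype and pair, made in limma 3.58.1 (R 4.3.3) by lmFit and eBayes, and p-values were adjusted over all of them by Benjamini-Hochberg, at 0.05. The number of arrays limits the precision, and p-values cover the spread between these 3 pairs. The script was tested on simulated data.

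Genes were named from a platform annotation in which 34945 probe sets carry 1 symbol, 932 several and 9160 none. All 33 Hox symbols matched RefSeq genes of GRCm38.p6, and each gene was read from its brightest probe set. The labels number the animals within each genotype, and the methods of the study compared littermates of the same number, so the numbers were taken to pair the animals. How far the arrays lay from their group means was correlated between KO and WT at 0.446, 0.0847 and 0.160 for pairs 1, 2 and 3, and at -0.359 to 0.281 for unpaired animals.

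Values per array were given for the 3 brightest tested genes of each cluster and for genes that passed, or that differed by 1.5-fold on average in the same direction in 3 of 3 pairs. Of other lists up to 4 genes with the largest differences were named. Values of Hoxb5, Hoxb9, Hoxc8, Hoxa2, Hoxa9, Ezh2, Zic1 and marker genes were added after they had been seen. The members and lists were chosen with earlier results of these data known. As alternatives the fit was repeated with other scalings and floors, with a pseudocount, with other filters, with a robust prior that follows intensity, without the pair term, with other ways to choose probe sets, and leaving out each pair.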

Additional observations from a re-analysis of the deposited data

How the results depend on the processing

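The direction of Hoxb3, Hoxc4, Hoxc5, Hoxc9 and Hoxd9 was the same under each alternative that gave a value, and the Hox median stayed between -0.09 and -0.03. Hoxc9 and Hoxd9 gave a value under each alternative except a filter above 2, which removed them, as it did Hoxb4. Of 17 Hox intervals 14 lay within 2-fold and 7 within 1.5-fold, and signals below 0.25 of the median have no order after the floor. The cause of the changes below was not tested.

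Against 0 probe sets past the adjusted test (1911 at an unadjusted p under 0.05), 123 passed with a pseudocount of 1 in place of the floor, 40 after filtering at a mean above 2, 311 under a robust prior that follows intensity, 3 when the probe sets of each gene were averaged (the gene mean), and 0 to 255 with 1 pair left out, 255 without pair 1. Without the littermate pair as a replicate block 0 passed. Of Hox genes 1 passed without pair 1 (Hoxc9), and 0 without pair 2 or pair 3. The 307 probe sets at 1.5-fold in all 3 pairs became 122 with the pseudocount, 194 with a filter above 2, 807 with no filter, 129 with the gene mean and 756 to 1181 with 1 pair left out.

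The count of Hox genes lower in every pair, 1 (Hoxc5), was 2 on unscaled signals, 3 with the gene mean, 2 with plain probe sets only and 4 to 8 with 1 pair left out, 8 without pair 1. The count higher in every pair, 2, was 1 with a filter above 2 and 1 with the gene mean, and 3 on unscaled signals, after quantile normalization, with no filter and without pair 3. With the gene mean Hoxc5 was -0.079 and Hoxc6 -0.47.

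With the gene mean the sign turned for Hoxa3 (0.00073), Hoxa4 (-0.0044), Hoxa5 (-0.14) and Hoxd8 (-0.011), and for Hoxb2 it turned on unscaled signals (0.032) and after quantile normalization (0.024). With 1 pair left out the differences ran from -0.032 to 0.091 for Hoxa5, from -0.19 to 0.11 for Hoxb2, from -0.35 to 1.58 for Hoxb4, from -0.21 to 0.057 for Hoxc6 and from -0.025 to 0.13 for Hoxd8.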

Other observations

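Transcripts from within the Hox clusters that are not Hox genes were also measured. Hoxb5os, a noncoding transcript at the Hoxb5 gene, had 2.09, 1.27 and 1.80 times the array median in KO and 2.24, 1.91 and 1.27 in WT, above the median on all 6 arrays, while Hoxb5 itself reached the median only in WT2 and WT3. Hoxd3os1 had 1.20, 2.25 and 1.97 in KO and 1.11, 1.33 and 2.28 in WT at its brighter probe set. Both groups overlapped for both transcripts, with log2 differences of -0.06 for Hoxb5os and 0.22 for Hoxd3os1. The probe sets of Hoxa11os stayed at or below 0.515 in every animal.

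Probe sets naming a pair of Hox genes were left out of the comparison. The probe set for Hoxb8 and Hoxb7 had 0.688, 0.0916 and 0.447 times the median in KO and 0.648, 0.293 and 0.919 in WT. Those for Hoxd4 and Hoxd3 were at or below 0.811 on every array.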
